A study of Homo sapiens with 16 samples.

Results

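RUNX1, RUNX2, RUNX3 and CBFB together make up the human core binding factor, and they are described here in 12 RNA-seq libraries of 2 acute myeloid leukaemia lines. The 4 genes were taken by their symbols from the 60357 genes listed in each count table, and all 4 passed the filter on low counts. Kasumi-1 and SKNO-1 are established lines that both carry the t(8;21) translocation, and every library, control libraries included, therefore comes from cells with the RUNX1/ETO fusion gene. Kasumi-1 was grown in 10% serum, and SKNO-1 in 15% serum with added GM-CSF, so that line and culture medium cannot be told apart. Cells received 2 µg/ml of lipid nanoparticles for 24 h and were harvested on day 3. The particles held either siRE-mod, a chemically modified siRNA against the junction of the fusion transcript, or siMM-mod, its modified mismatch control. Each of the 4 labelled groups, LNP/siMM-mod and LNP/siRE-mod in each line, has 3 libraries. Nothing in the labels says whether the 3 came from separate cultures, and p-values measure the spread between these libraries.

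The 3 RUNX genes encode DNA-binding proteins that share the Runt domain, which reads the sequence TGTGGT or TGCGGT. CBFB encodes their common partner, which does not touch DNA itself but strengthens the binding of each RUNX protein and protects it from degradation. RUNX1 is needed for the first blood stem cells and for platelet and lymphoid maturation, RUNX2 is best known as the regulator of bone formation, and RUNX3 acts in T cells and sensory neurons. In t(8;21) leukaemia the 5′ part of RUNX1, with the Runt domain, is joined to nearly all of RUNX1T1 (ETO), so the fusion protein competes for the same sites and the same CBFB.

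Counts per library summed to between 60559466 and 147990959, with a median of 89160101. The lowest count of any of the 4 genes in any library was 896, for RUNX3, so counting error is small beside the differences between libraries. Levels below are CPM, counts relative to the library size, with library sizes scaled by the TMM method (normalised CPM), unless they are given per length. Of the myeloid markers, CD33 was between 38.0 and 76.3 and MPO between 1780 and 22627 normalised CPM in the 12 libraries. The 3 T cell markers together reached at most 0.401, the 3 erythroid ones 0.851 and the 3 stromal ones 0.130 normalised CPM. CD3G and COL1A2 were at 0 in all 12. Of the B cell markers MS4A1 was at 0 in all 12, but CD79A was between 0.905 and 2.90 and PAX5 between 1.67 and 11.2. EPCAM, of the epithelial markers, reached 104.1 and VWF, of the endothelial ones, 3.25.

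The transcript targeted by the siRNA is read here through RUNX1T1, and it did not follow the labels. In the Kasumi-1 libraries labelled siMM-mod, RUNX1T1 was at 296.2, 92.7 and 160.8 normalised CPM (replicates 1, 2 and 3), and in those labelled siRE-mod it was at 44.3, 158.8 and 37.2. In the SKNO-1 libraries labelled siMM-mod it was at 328.7, 297.3 and 126.6, and in those labelled siRE-mod at 123.3, 164.0 and 40.4. In Kasumi-1, the library labelled siRE-mod replicate 2 thus held more RUNX1T1 than the library labelled siMM-mod replicate 2, and in SKNO-1 the one labelled siRE-mod replicate 2 held more than the one labelled siMM-mod replicate 3. CD34, a surface protein of blood progenitors, cut across both the siRNA and the line labels. It was at 116.8 normalised CPM or above in 6 libraries and at 0.626 or below in the other 6.

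Values are therefore given for each library by its label and also by a sorting on measured levels. The 12 libraries were divided at the widest gap in CD34, and the CD34-expressing and the CD34-silent class were each divided again at the widest gap in RUNX1T1. The CD34-expressing libraries with higher RUNX1T1 were those labelled Kasumi-1 siMM-mod 1, SKNO-1 siMM-mod 1 and SKNO-1 siMM-mod 2. The CD34-expressing libraries with lower RUNX1T1 were labelled Kasumi-1 siMM-mod 2, SKNO-1 siMM-mod 3 and SKNO-1 siRE-mod 1. Among the CD34-silent libraries, the higher RUNX1T1 levels were in those labelled Kasumi-1 siMM-mod 3, Kasumi-1 siRE-mod 2 and SKNO-1 siRE-mod 2, and the lower ones in Kasumi-1 siRE-mod 1, Kasumi-1 siRE-mod 3 and SKNO-1 siRE-mod 3. Each of these 4 sets of 3 libraries mixes labels of both lines. They were made from measured values, so they are described with no test.

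RUNX1 lies on the reverse strand of chromosome 21, at 34787801 to 36004667 (GRCh38, ENSG00000159216.18), with 15574 exonic bases. Of these, 8265 bases (53.1%) lie up to the end of exon 6, the last exon kept in the fusion, and 7309 lie after it. Reads on the first stretch can come from RUNX1 or from the fusion, and a count for the whole gene cannot separate them. The last 40 bases of exon 6 are shown because the siRNA pairs with their end. They lie at chr21:34859474-34859513 on the reverse strand, and the capitals mark the 7 bases shared with the 21-base sense strand of siRE. This is the unmodified parent of the siRE-mod used here, and siRE-mod begins with the same 7 bases.
RUNX1 exon 6 end: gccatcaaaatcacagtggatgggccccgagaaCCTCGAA
Exon 6 of the wild-type transcript therefore carries 7 of the 21 bases of siRE, and the exon that follows it was not compared.

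By label, RUNX1 was at 410.3, 316.4 and 267.0 normalised CPM in Kasumi-1 siMM-mod and at 154.8, 273.3 and 155.9 in Kasumi-1 siRE-mod. The groups overlapped, because siRE-mod replicate 2 stood above siMM-mod replicate 3. The difference was −0.77 ± 0.30 on the log2 scale (SE, n = 3 against 3, edgeR quasi-likelihood test, adjusted p = 0.262) and did not pass the threshold of 0.05. In SKNO-1 siMM-mod, RUNX1 was at 398.6, 382.3 and 307.9, and in SKNO-1 siRE-mod at 294.4, 248.0 and 140.7. All 3 siRE-mod libraries were below all 3 siMM-mod libraries here, which 6.01% of the 15863 genes kept also showed in this direction. The difference was −0.67 ± 0.30 (log2, adjusted p = 0.476, edgeR). None of the 4 genes was called in either line by edgeR, against 0.0% of the 13608 genes tested in Kasumi-1 and 0.0% of the 13628 tested in SKNO-1. Genes with an unadjusted p under 0.05 numbered 2435 for the first line and 1455 for the second.

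Sorted by CD34 and RUNX1T1, RUNX1 fell into 4 separate levels after TMM scaling, whereas in CPM without it the middle 2 overlapped. It was between 382.3 and 410.3 normalised CPM in the CD34-expressing libraries with higher RUNX1T1 and between 294.4 and 316.4 in those with lower RUNX1T1. In the CD34-silent libraries it was between 248.0 and 273.3 with higher RUNX1T1 and between 140.7 and 155.9 with lower RUNX1T1. The highest level in one set was below the lowest of the set before. Without TMM scaling, RUNX1 was between 270.2 and 325.7 CPM in the CD34-expressing libraries with lower RUNX1T1 and between 249.4 and 298.7 in the CD34-silent ones with higher RUNX1T1. Between CD34 classes, RUNX1 was lower in the CD34-silent libraries both at higher and at lower RUNX1T1, as were 28.8% of genes in each case. The median ratio of higher to lower RUNX1T1 libraries was 1.29 among the CD34-expressing and 1.72 among the CD34-silent libraries. RUNX1 was lower in the libraries with lower RUNX1T1 in both CD34 classes, as were 20.2% and 21.6% of all genes kept. Since fusion reads count towards both genes, RUNX1 is not independent of the RUNX1T1 level used to sort.

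**Figure D1:**
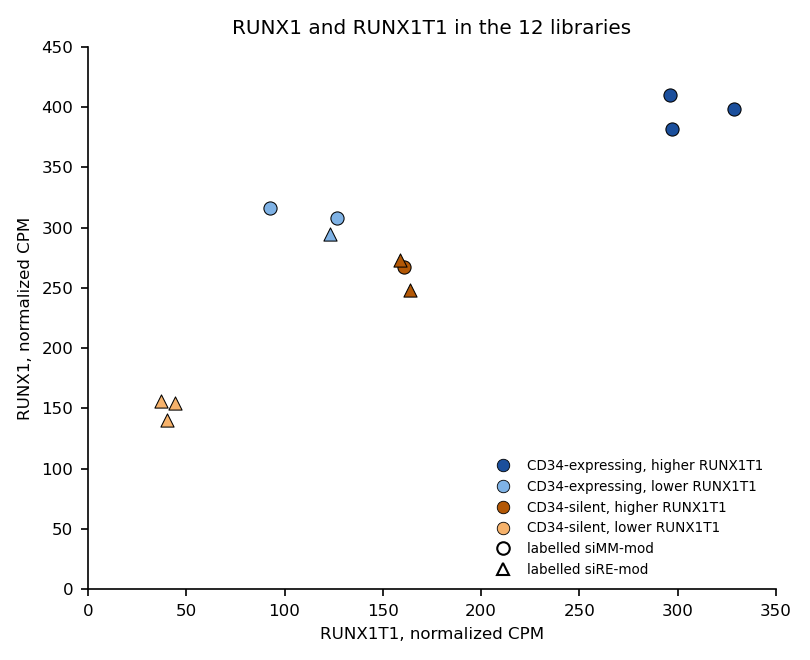
Normalised CPM of RUNX1 (y axis) against RUNX1T1 (x axis), 1 point a library, coloured by the 4 sets and shaped by siRNA label. The libraries form 4 clumps of 3, and the clump between 92.7 and 126.6 RUNX1T1 lies above the one between 158.8 and 164.0, an order that is lost without TMM scaling, where these 2 overlap in RUNX1.

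RUNX2 lies on the forward strand of chromosome 6, at 45328157 to 45664349 (GRCh38, ENSG00000124813.23), with 8192 exonic bases. In Kasumi-1 siMM-mod it was at 47.0, 60.7 and 77.6 normalised CPM, and in Kasumi-1 siRE-mod at 109.3, 76.6 and 111.2. A single pair overlapped, siRE-mod replicate 2 and siMM-mod replicate 3, the same libraries as for RUNX1. The difference was 0.69 ± 0.23 (log2, adjusted p = 0.253, edgeR). In SKNO-1 siMM-mod RUNX2 was at 50.5, 44.6 and 68.1, and in SKNO-1 siRE-mod at 65.4, 80.4 and 111.6. Again 1 pair overlapped, siRE-mod replicate 1 and siMM-mod replicate 3, which both belong to the CD34-expressing libraries with lower RUNX1T1. The difference was 0.65 ± 0.27 (log2, adjusted p = 0.466, edgeR).

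In the sorted libraries RUNX2 ran in the opposite order to RUNX1. Its range was 44.6 to 50.5 normalised CPM in the CD34-expressing libraries with higher RUNX1T1, 60.7 to 68.1 in those with lower RUNX1T1, 76.6 to 80.4 in the CD34-silent libraries with higher RUNX1T1 and 109.3 to 111.6 in those with lower RUNX1T1. No 2 of these ranges overlapped, and the 3 libraries of the last set differed by a factor of only 1.02. The median was 1.39 times higher at lower RUNX1T1 among the CD34-expressing libraries and 1.43 times higher among the CD34-silent ones. Of all genes kept, 18.0% and 21.7% were likewise higher without overlap in these comparisons. Between CD34-silent and CD34-expressing libraries the RUNX2 median was 1.65 times higher where RUNX1T1 was higher and 1.70 times higher where it was lower, and 31.8% and 32.6% of genes were higher without overlap there.

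RUNX3 lies on the reverse strand of chromosome 1, at 24899511 to 24965121 (GRCh38, ENSG00000020633.18), with 4523 exonic bases. It varied most of the 4 genes, with a highest level 5.12 times the lowest, against 2.92 for RUNX1, 2.51 for RUNX2 and 2.03 for CBFB. In Kasumi-1 siMM-mod it was at 13.5, 31.4 and 46.3 normalised CPM, and in Kasumi-1 siRE-mod at 58.3, 46.0 and 66.2. The 2 groups overlapped by the narrow gap between siMM-mod replicate 3 and siRE-mod replicate 2, and the difference was 0.91 ± 0.43 (log2, adjusted p = 0.318, edgeR). In SKNO-1 siMM-mod RUNX3 was at 13.5, 12.9 and 20.6, and in SKNO-1 siRE-mod at 18.6, 33.7 and 61.8. The difference was 1.26 ± 0.44 (log2, adjusted p = 0.466, edgeR), with siRE-mod replicate 1 below siMM-mod replicate 3.

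Sorted by CD34, RUNX3 had the largest ratio between medians of the 4 genes, although its ranges lay close to each other. It was between 12.9 and 31.4 normalised CPM in the 6 CD34-expressing libraries and between 33.7 and 66.2 in the 6 CD34-silent libraries. The median of the CD34-silent libraries was 3.41 times higher where RUNX1T1 was higher and 3.00 times higher where it was lower. Of all genes kept, 31.8% and 32.6% were likewise higher without overlap in these comparisons. Within each CD34 class the RUNX1T1 level added a smaller step. RUNX3 was between 12.9 and 13.5 with higher and between 18.6 and 31.4 with lower RUNX1T1 in the CD34-expressing libraries, a ratio of medians of 1.53. In the CD34-silent libraries it was between 33.7 and 46.3 with higher and between 58.3 and 66.2 with lower RUNX1T1, a ratio of 1.34. At lower RUNX1T1, 18.0% of all genes kept were likewise higher without overlap in the CD34-expressing and 21.7% in the CD34-silent libraries. In all 12 libraries, RUNX1 was lower and RUNX2 and RUNX3 were higher in every CD34-silent than in every CD34-expressing library, as were 15.6% of genes kept in the first direction and 17.5% in the second. For RUNX1 this separation was lost in CPM without TMM scaling, where its ranges overlapped.

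CBFB lies on the forward strand of chromosome 16, at 67028984 to 67101058 (GRCh38, ENSG00000067955.15), with 4652 exonic bases. It was the steadiest of the 4 genes. In Kasumi-1 siMM-mod it was at 84.1, 84.2 and 89.3 normalised CPM, and in Kasumi-1 siRE-mod at 113.3, 91.3 and 126.7. With TMM scaling it was the one member whose Kasumi-1 groups did not overlap, as was found for 10.4% of all genes in this direction, and the difference of 0.37 ± 0.15 (log2, adjusted p = 0.276, edgeR) did not pass the threshold. In CPM without TMM scaling the Kasumi-1 groups were separate for RUNX2 (44.5 to 72.6 against 83.8 to 130.1) and RUNX3 (12.8 to 43.3 against 50.3 to 73.5) as well. The share of all genes separate in that scaling was not counted. The median log2 ratio of all genes, siRE-mod over siMM-mod, was 0.37 in that scaling and 0.044 with TMM. In SKNO-1 siMM-mod CBFB was at 80.2, 85.0 and 65.6, and in SKNO-1 siRE-mod at 62.4, 72.1 and 116.2. Of the SKNO-1 siRE-mod libraries, 2 were within or below the siMM-mod range and the third was above it. The difference was 0.11 ± 0.26 (log2, adjusted p = 0.903, edgeR).

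CBFB did not follow the order of the RUNX genes in the sorted libraries. In the CD34-silent libraries with lower RUNX1T1 it was between 113.3 and 126.7 normalised CPM, above the other 9 libraries, which lay between 62.4 and 91.3. Among the CD34-silent libraries its median was 1.30 times higher at lower RUNX1T1, and 21.7% of all genes kept were likewise higher without overlap. At lower RUNX1T1, 32.6% of genes were, like CBFB, higher without overlap in the CD34-silent than in the CD34-expressing libraries. Among the CD34-expressing libraries its median was lower at lower RUNX1T1, 65.6 against 84.1, and the ranges of 62.4 to 84.2 and 80.2 to 85.0 overlapped. In CPM without TMM scaling this last pair of ranges did not overlap, with lower CBFB at lower RUNX1T1. With TMM scaling 20.2% of all genes were lower without overlap in that comparison, and the share without it was not counted. RUNX2 and RUNX3 were higher at lower RUNX1T1 in both CD34 classes, and CBFB only in the CD34-silent class. This difference between the genes was not tested.

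**Figure D2:**
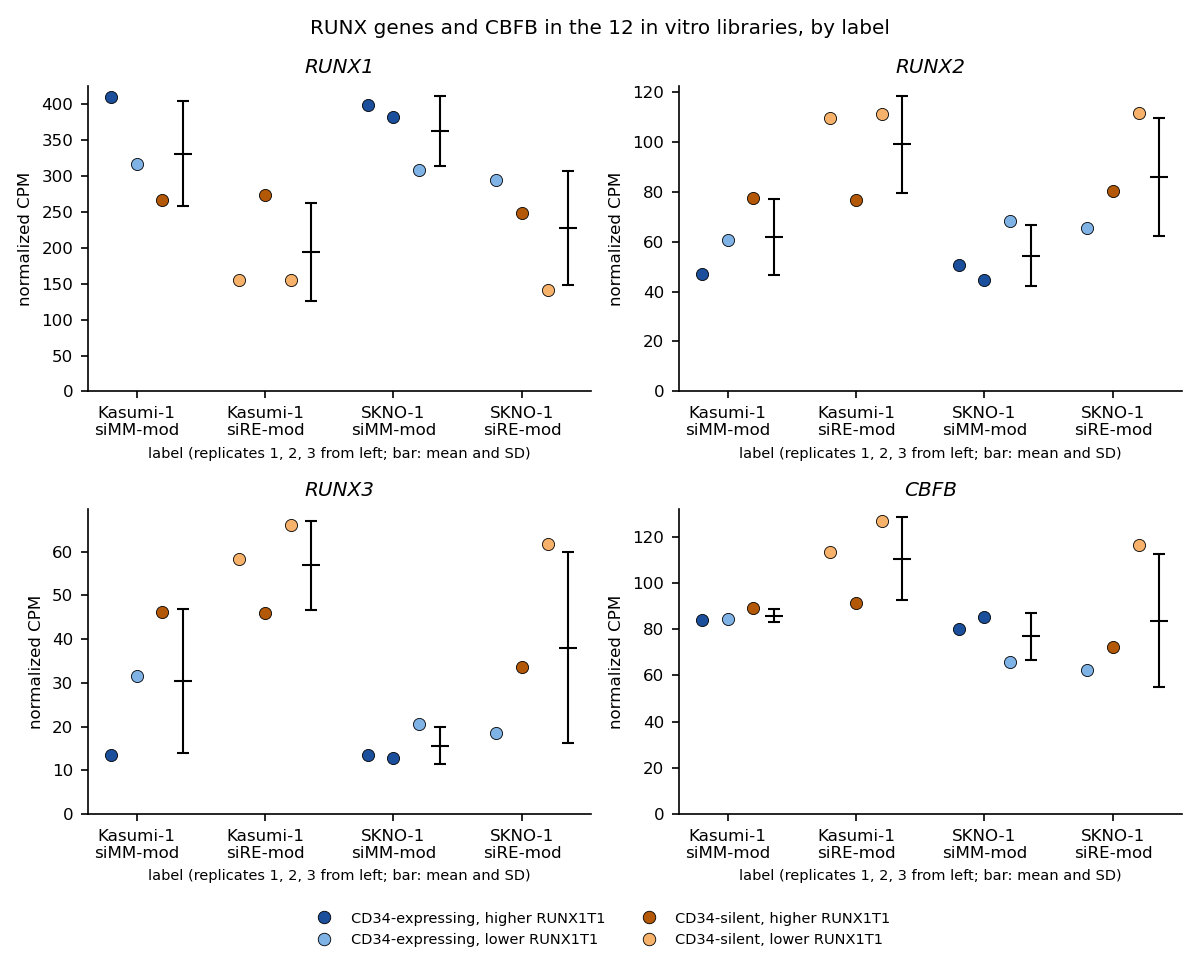
Normalised CPM of each gene (y axes) in the 12 libraries by label (x axes), 1 point a library in the order of replicates 1, 2 and 3, coloured by the 4 sets, with the mean and SD of each labelled group as a bar. Points of 1 colour lie close together for RUNX1 and RUNX2 whatever their label, while for RUNX3 and CBFB they lie apart by line label in some sets. Only CBFB in Kasumi-1 and RUNX1 in SKNO-1 have siRE-mod points that do not overlap the siMM-mod points. CPM without TMM scaling adds RUNX2 and RUNX3 in Kasumi-1, where the median log2 ratio of all genes was 0.37 and the share of genes was not counted.

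**Figure D3:**
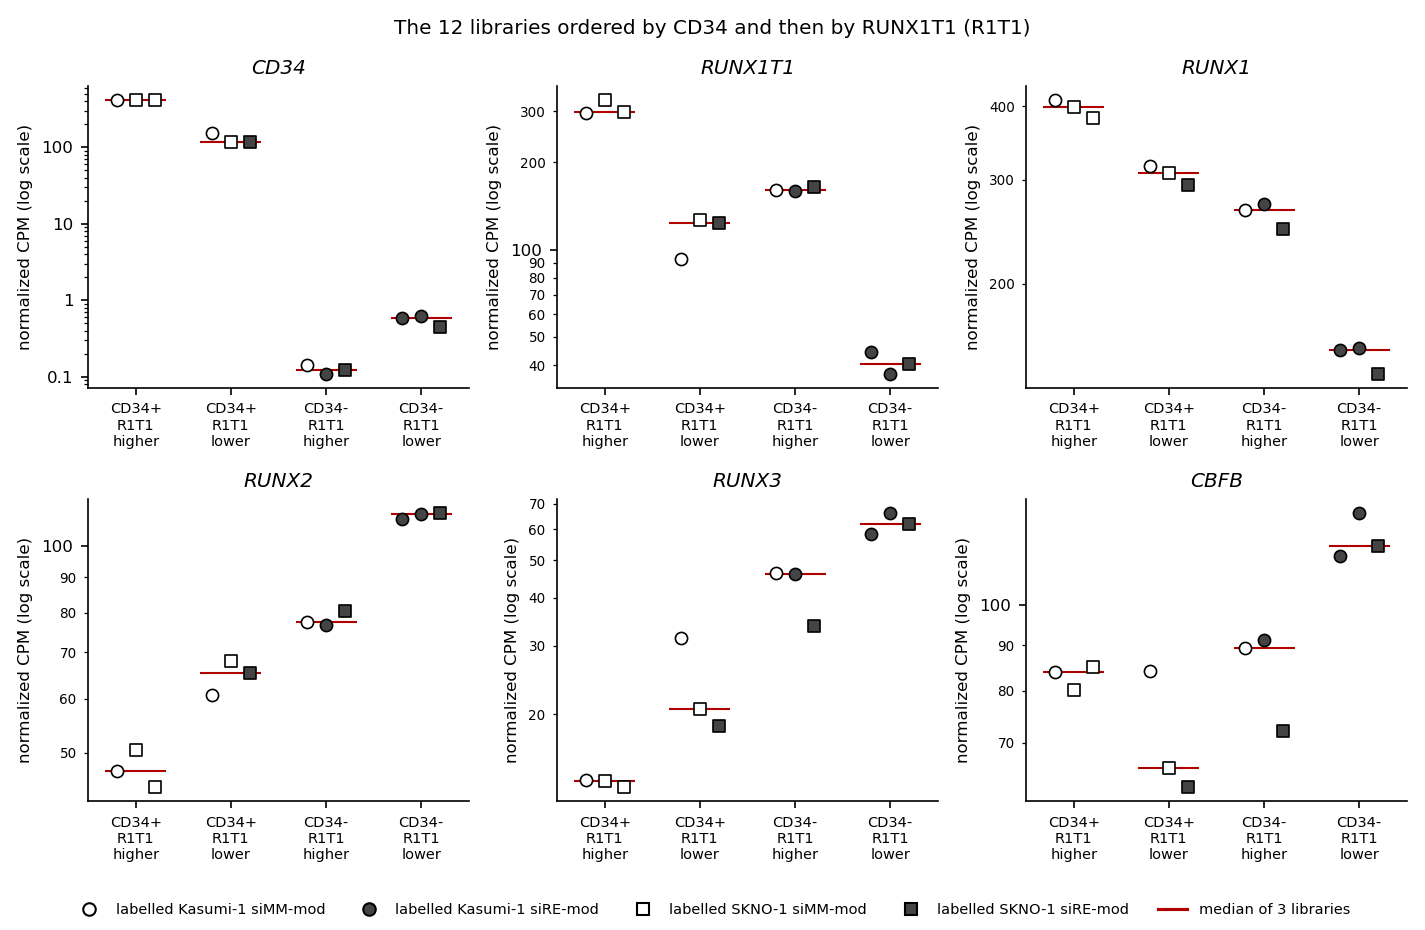
Normalised CPM on log axes of CD34, RUNX1T1 and the 4 genes, in the 12 libraries sorted by CD34 and then by RUNX1T1, with circles for libraries labelled Kasumi-1, squares for SKNO-1, open symbols for siMM-mod and filled for siRE-mod, and a line at the median of each 3. RUNX1 steps down (without TMM scaling its middle 2 sets overlap) and RUNX2 and RUNX3 step up from left to right, while CBFB stands apart only in the last set, at 113.3 to 126.7.

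Markers of other cell types moved with the CD34 classes too. EPCAM, an epithelial surface protein, made up nearly all of the summed 3 epithelial markers, which were between 77.3 and 104.1 normalised CPM in the CD34-expressing and at most 0.0989 in the CD34-silent libraries. The 3 endothelial markers summed to at most 0.577 in the CD34-expressing libraries and to between 1.34 and 5.47 in the CD34-silent ones. The 5 myeloid and progenitor markers, led by MPO, summed to between 11951 and 23710 in the CD34-expressing and between 2234 and 6709 in the CD34-silent libraries. The B cell markers summed to between 7.73 and 14.1 and to between 2.84 and 4.98. The part of cell state or cell identity in the RUNX differences was not tested, and in these bulk samples fewer cells of a type and less RNA per cell cannot be told apart.

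The siRNA label had a similar estimate in both lines for RUNX1 and RUNX2. The difference between the SKNO-1 and the Kasumi-1 effect was 0.09 ± 0.43 for RUNX1, −0.02 ± 0.37 for RUNX2, 0.38 ± 0.67 for RUNX3 and −0.25 ± 0.32 for CBFB (log2, adjusted p = 1.00 for each, edgeR interaction term). No gene of 15863 was called for this difference by edgeR (0.0%), with 106 at an unadjusted p under 0.05. The standard errors were 0.32 to 0.67, of the size of the label differences themselves, so a moderate difference between the lines was not detectable.

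Between the lines as labelled, RUNX3 had the largest estimate. Across the 6 libraries of each line it was between 13.5 and 66.2 normalised CPM in Kasumi-1, with a median of 46.1, and between 12.9 and 61.8 in SKNO-1, with a median of 19.6. The difference was −0.77 ± 0.33 (SKNO-1 against Kasumi-1, log2, adjusted p = 0.378, edgeR). It was 0.18 ± 0.21 for RUNX1 (adjusted p = 0.614), −0.19 ± 0.18 for RUNX2 (adjusted p = 0.531) and −0.28 ± 0.16 for CBFB (adjusted p = 0.412) in the same edgeR fit. None was called, as none of 15863 genes was (0.0%), with 2050 at an unadjusted p under 0.05. Without SKNO-1 siRE-mod replicate 3, 70 genes were called (0.451%), and none of them was a member. The line labels hold unequal numbers of CD34-silent libraries, 4 in Kasumi-1 and 2 in SKNO-1.

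A fit with the CD34 class as a term compares the labels within a class, and in each line 1 arm of that comparison is a single library. All 3 Kasumi-1 siRE-mod libraries are CD34-silent and only siMM-mod replicate 3 is so among their controls, while all 3 SKNO-1 siMM-mod libraries are CD34-expressing and only siRE-mod replicate 1 is so among the treated. The class itself was made from measured values, so the estimates are given as a description. In Kasumi-1 they were −0.43 ± 0.37 for RUNX1, 0.38 ± 0.27 for RUNX2, 0.33 ± 0.47 for RUNX3 and 0.34 ± 0.21 for CBFB (log2, SE, edgeR). In SKNO-1 they were −0.27 ± 0.37, 0.29 ± 0.32, 0.27 ± 0.43 and −0.28 ± 0.31 in the same order of genes. The line difference of RUNX3 was −0.39 ± 0.25 with this term.

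Leaving out single libraries produced the only calls of a member. Without Kasumi-1 siMM-mod replicate 3, the CD34-silent library in that group, RUNX2 was higher in siRE-mod by 0.88 ± 0.22 (log2, adjusted p = 0.0284, edgeR) and RUNX3 by 1.34 ± 0.39 (adjusted p = 0.0469). In that fit 32.2% of all genes tested were called, 4250 in number. Without SKNO-1 siRE-mod replicate 1, the CD34-expressing library in that group, RUNX3 was higher in siRE-mod by 1.57 ± 0.34 (log2, adjusted p = 0.0243, edgeR), and 19.3% of genes were called, 2535 in number. In both of these fits all siMM-mod libraries left are CD34-expressing and all siRE-mod libraries left are CD34-silent. The siRNA label and the CD34 class therefore cannot be told apart there. DESeq2 called no member either, where it called 8.75% of the Kasumi-1 genes, 2.78% of the SKNO-1 genes, 0.751% for the interaction and 1.75% between lines.

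**Figure D4:**
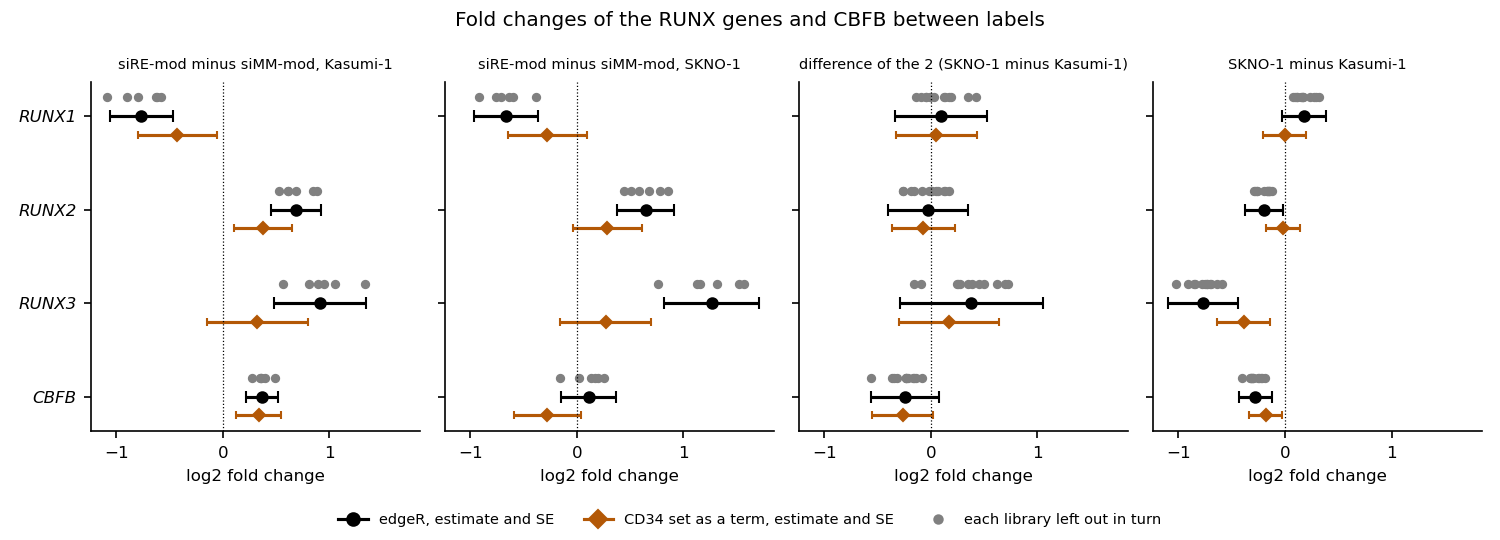
Log2 fold changes (x axes) of the 4 genes (y axis) in the 4 edgeR fits, with the SE as a bar (black), the same with the CD34 class as a term (orange diamonds, where 1 arm of each siRNA comparison is a single library) and each library left out in turn (grey points). RUNX1 lies below 0 and RUNX2 and RUNX3 above 0 for the siRNA labels in both lines, the largest being RUNX3 in SKNO-1 at 1.26.

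Compared per length with TMM scaling, the 3 RUNX genes changed places while their sum moved little. Normalised CPM per kilobase of exonic length, summed over RUNX1, RUNX2 and RUNX3, was between 31.0 and 38.2 in the 12 libraries, and its median was 34.9. The sum spreads wider without TMM scaling. Library size was multiplied by 1.19 in Kasumi-1 siRE-mod replicate 1, where the sum was 36.2. It was multiplied by 0.854 in SKNO-1 siMM-mod replicate 2, where the sum was 32.8. Of the summed level RUNX1 made up between 24.9% and 75.1%, RUNX2 between 16.4% and 37.5% and RUNX3 between 8.53% and 38.3%. The RUNX1 share counts the fusion as well. RUNX1 was the highest of the 4 genes per length in 7 libraries, which were the 6 CD34-expressing ones and SKNO-1 siRE-mod replicate 2, in the order RUNX1, CBFB, RUNX2, RUNX3. In the other 5 CBFB was the highest, and in the 3 CD34-silent libraries with lower RUNX1T1 RUNX1 was the lowest of the 4, at 9.03 to 10.0 per kilobase against 13.3 to 13.6 for RUNX2 and 12.9 to 14.6 for RUNX3. Within that set RUNX2 and RUNX3 overlapped. The summed RUNX level was between 1.40 and 2.31 times that of CBFB.

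**Figure D5:**
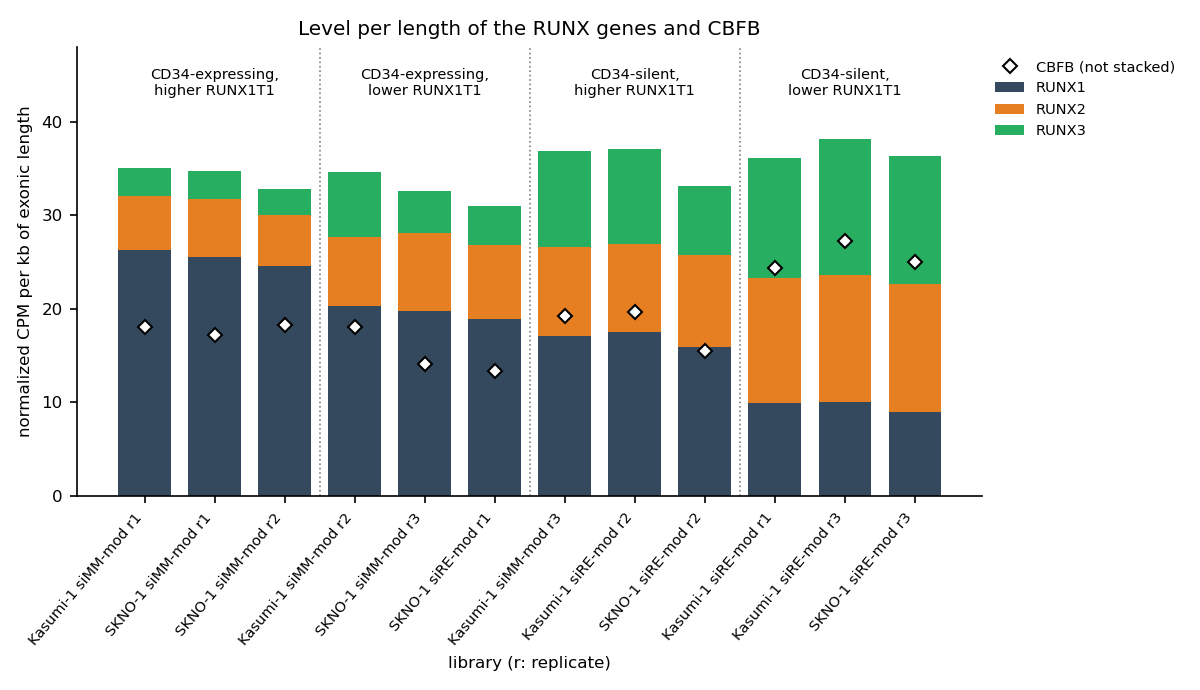
Normalised CPM per kilobase of exonic length (y axis) of RUNX1, RUNX2 and RUNX3 as stacked bars from 0, with CBFB as diamonds, for the 12 libraries (x axis) in the 4 sets. With TMM scaling, without which it spreads wider, the height of the bars stays between 31.0 and 38.2 while the RUNX1 part goes from 75.1% to 24.9%.

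The promoters of the members are read here for the motif of the proteins that these genes encode. RefSeq promoter windows (GRCh38.p14, 250 bases before and 50 bases from the start) were found for 3 of the 4 genes, with 1 window for RUNX1, 2 for RUNX2 and 2 for RUNX3. They were searched on both strands for TGTGGT and TGCGGT. The RUNX2 window with its start at base 45328330 held 5 matches and the RUNX3 window with its start at base 24965010 held 2. The second windows of RUNX2 (start at 45422275) and RUNX3 (start at 24930276) and the 1 window of RUNX1 held none. The RUNX1 window starts at base 34888699, inside a gene that reaches upstream to base 36004667. Starts of RUNX1 further upstream were therefore not searched, and the windows do not set RUNX1 apart from the other 2 genes. Either motif was found in 19.6% of all 35116 windows, at least 2 matches in 2.32% and at least 5 in 0.0114%. Both genes hold 2 copies of the first motif at the same spacing. The stretches are shown for that, with capitals for the motif as it reads on the opposite strand, from chr6:45328341-45328364 on the forward strand and chr1:24965123-24965146 on the reverse strand.
RUNX2: aaacaACCACAgaACCACAagtgc
RUNX3: cctcaACCACAgaACCACAaggcc
The pair with these same 2 bases, GA, between its copies occurred in 3 of the 35116 windows (0.00854%), those of RUNX2, RUNX3 and OR52N2. Pairs at this spacing with other bases between the copies were not searched, so the share for the spacing itself is not known. It was noticed after the sequences had been read. In RUNX2 it lies after the start and in RUNX3 before it. A match describes letters and not binding, and no match says only that these letters are not in the window.

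The genes whose levels ran most like each member over the 12 libraries were chosen by Pearson's r of log2 normalised CPM among 7623 genes with a mean of at least 16 CPM. For RUNX1 they were IKBKE (r = 0.991), NPR3 (0.989) and PXN (0.989). For RUNX2 they were TNFAIP3 (r = 0.993), an inhibitor of NF-κB signalling, FAM102B (0.991) and LMO7 (0.987). For RUNX3 they were SEC14L1 (r = 0.992), SIK3 (0.988), a protein kinase, and RIN3 (0.984). For CBFB they were JPT2 (r = 0.983), CTU2 (0.980) and NCAPH2 (0.980), a condensin subunit. The 12 libraries form 4 clumps, so these correlations describe how the clumps are ordered.

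Factors that bind DNA beside RUNX proteins were read from a list of 15 genes, of which 14 could be tested for Kasumi-1 and 13 for SKNO-1. edgeR called none between labels, with medians of −0.04 and 0.13 on the log2 scale against 0.02 and 0.03 over all genes, and DESeq2 called GATA2, GFI1B and IKZF1 as higher in Kasumi-1 siRE-mod and none in SKNO-1, where it called 8.75% of all Kasumi-1 genes (214 higher, 949 lower) and 2.78% of all SKNO-1 genes (354 higher, 18 lower). GATA2, a zinc finger factor of blood progenitors, was at 35.3, 51.2 and 97.8 normalised CPM in Kasumi-1 siMM-mod and at 305.0, 94.3 and 350.8 in Kasumi-1 siRE-mod (log2 difference 2.04 ± 0.60, adjusted p = 0.252, edgeR). In SKNO-1 GATA2 was at 30.4, 32.4 and 30.6 and at 32.6, 69.0 and 315.5 (2.13 ± 0.79, adjusted p = 0.466, edgeR), so that all siRE-mod libraries were above all siMM-mod libraries there, as for 5.94% of all genes. It was between 305.0 and 350.8 in the CD34-silent libraries with lower RUNX1T1 and at most 97.8 in every other library. IKZF1, the lymphoid factor Ikaros, had log2 differences of 0.70 ± 0.22 and 0.68 ± 0.30 in the 2 lines, LYL1 had −0.36 ± 0.16 in Kasumi-1 and ELF1, an ETS factor, 0.61 ± 0.33 in SKNO-1. ERG, another ETS factor, was picked after its values were seen. It was at 18.3 to 19.3 in the CD34-silent libraries with lower RUNX1T1 and 69.7 to 95.0 in all others. Of all genes kept, 32.6% were higher and 28.8% lower without overlap in the CD34-silent than in the CD34-expressing libraries at lower RUNX1T1. At lower RUNX1T1, 7 of the 14 kept were higher and 3 lower without overlap in the CD34-expressing libraries, against 18.0% and 20.2% of all genes, and 5 were higher and 5 lower in the CD34-silent libraries, against 21.7% and 21.6%.

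Proteins that modify RUNX factors or are recruited by them were read from a list of 23 genes, of which 21 were tested in each line. edgeR called none between labels, with a median of 0.20 for Kasumi-1 and of 0.11 for SKNO-1 (log2), and DESeq2 called HIPK2 in the former and PIM1 in the latter, both as higher in siRE-mod, beside the same 8.75% and 2.78% of all genes. PIM1, a serine/threonine kinase, had the largest difference in SKNO-1, at 11.0, 11.6 and 8.66 normalised CPM in siMM-mod and 8.58, 318.6 and 445.3 in siRE-mod (4.61 ± 1.26, adjusted p = 0.466, edgeR). It was between 8.58 and 12.4 in the CD34-expressing and between 268.9 and 445.3 in the CD34-silent libraries, so it was sorted by CD34 and not by the label. Of all genes kept, 17.5% were likewise higher in every CD34-silent than in every CD34-expressing library. HIPK2, a kinase that phosphorylates RUNX1, had a log2 difference of 1.05 ± 0.35 in Kasumi-1. The histone deacetylases HDAC3 and HDAC1 had −0.32 ± 0.14 and −0.31 ± 0.15 there, and the co-repressor NCOR1 and the acetyltransferase CREBBP had 0.74 ± 0.28 and 0.64 ± 0.26 in SKNO-1. At lower RUNX1T1, 3 of the 22 kept were higher and 9 lower without overlap in the CD34-expressing libraries, against 18.0% and 20.2% of all genes. In the CD34-silent ones 6 were higher and 3 lower, against 21.7% and 21.6%.

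Genes known as RUNX targets in blood, bone or T cells were read from a list of 22, of which 12 were tested in each line. The bone genes IBSP and MMP13 and the blood genes IL3 and PF4 had no read in any library. edgeR called none between labels, with a median of 0.16 for Kasumi-1 and of 0.48 for SKNO-1 (log2), and DESeq2 called ELANE, CSF1R and MPO as lower in Kasumi-1 siRE-mod, beside 8.75% of all genes called there. ELANE, the neutrophil elastase gene, was at 869, 1972 and 131 normalised CPM in Kasumi-1 siMM-mod and at 58.1, 93.8 and 71.6 in siRE-mod (−3.74 ± 0.95, adjusted p = 0.252, edgeR). CSF1R, the macrophage colony-stimulating factor receptor, and MPO, myeloperoxidase, had log2 differences of −3.59 ± 1.01 and −2.17 ± 0.65 in Kasumi-1. In both, as in ELANE, all siRE-mod libraries were below all siMM-mod libraries, as for 11.1% of all genes. Among targets with a mean of at least 5 CPM, the smallest p-values in SKNO-1 were those of ITGA4, an integrin (0.50 ± 0.23), NFE2, a factor of the platelet lineage (2.25 ± 1.12), and SPI1, the myeloid factor PU.1 (0.46 ± 0.35). MYL9, a myosin light chain gene under that level, had 2.63 ± 0.90 (log2, adjusted p = 0.466, edgeR). NFE2 was at 1.73 to 2.11 in the CD34-expressing libraries with higher RUNX1T1, 15.4 to 25.2 in the 6 libraries between, and 62.6 to 70.7 in the CD34-silent libraries with lower RUNX1T1. At lower RUNX1T1, 5 of the 14 kept were higher and 2 lower without overlap in the CD34-expressing libraries, against 18.0% and 20.2% of all genes, and 7 were higher and 3 lower in the CD34-silent ones, against 21.7% and 21.6%. CSF1R was among the higher ones in the first comparison and, with MPO and GFI1, among the lower ones in the second.

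The counts of 0 in edgeR for these 3 lists depended on single libraries. Without Kasumi-1 siMM-mod replicate 3, edgeR called 4 of 14 DNA-bound factors (ELF1, GATA1, GATA2 and IKZF1, all higher in siRE-mod), 5 of 21 co-regulators (BMI1, CREBBP, HIPK2, NCOR1 and PIM1, all higher) and 4 of 12 targets (MYL9 higher, CSF1R, ELANE and MPO lower), against 32.2% of all genes. Without SKNO-1 siRE-mod replicate 1 it called 2 of 13 DNA-bound factors (ELF1 and GATA2, both higher), those 5 co-regulators and those 4 targets, in the same directions, against 19.3% of all genes. In both fits the siRNA label and the CD34 class divide the libraries alike and cannot be told apart.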

How the data were processed

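The deposited files hold raw read counts per gene, with CPM and FPKM columns that equal those counts rescaled by the authors. Per the labels and file headers, reads were trimmed with Trim Galore 0.6.5, aligned to GRCh38 with STAR 2.7.10a and counted over exons with Subread 1.6.5 (Rsubread 1.32.4), with the use of strand not stated. Only the counts entered tests. Genes needed at least 600 reads summed over a fit. edgeR 4.0.16 (TMM, robust quasi-likelihood fits, Benjamini-Hochberg over all genes, threshold 0.05) was the main test and DESeq2 1.42.0 an alternative, in R 4.3.3. Fits were tested on simulated data with a dispersion far below the common dispersion of the main fits, 0.197 to 0.255. The simulation therefore does not show how the fits perform on these data, and its criterion was changed after a failed run. Named genes were the 4 members, RUNX1T1, CD34, the 3 genes most correlated with each member (prior count 2), and from each list up to 3 genes with the smallest p in each line at a mean of at least 5 CPM. Other list genes named were chosen after their values were seen. The members, lists and tests were chosen with earlier results of these data known. No 2 libraries agreed within sampling noise. Of the 4 in vivo libraries, all 4 members, ACTB and GAPDH were listed at 0, and they were not used. Replicate numbers were not used to pair the samples in the main fits.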

Additional observations from a re-analysis of the deposited data

How the results depend on the processing

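Of 120 fold changes of the 4 genes under other filters, scalings, tools and terms, 116 kept their direction and side of the threshold. The sign turned for CBFB in SKNO-1 with the CD34 class as a term (−0.28), for RUNX1 between lines with that term (−0.0015), and for RUNX2 in the difference between lines with filterByExpr (0.023) and without the libraries whose RUNX1T1 crosses the labels (0.062), an alternative added after the values were seen. The cause was not tested. DESeq2 called 1163 genes in Kasumi-1 (214 higher, 949 lower), 372 in SKNO-1 (354 higher, 18 lower), 118 for the difference between lines (118 higher, 0 lower) and 272 between lines (97 higher, 175 lower), where edgeR called 0 in each. Leaving out each library in turn gave 0 to 4250, 0 to 2535, 0 to 0 and 0 to 70 called genes, with 70 without SKNO-1 siRE-mod replicate 3.

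On the log2 scale, leaving out each library gave in Kasumi-1 −1.08 to −0.58 for RUNX1, 0.53 to 0.88 for RUNX2, 0.56 to 1.34 for RUNX3 and 0.27 to 0.49 for CBFB. In SKNO-1 it gave −0.92 to −0.38, 0.45 to 0.86, 0.76 to 1.57 and −0.16 to 0.26 in that order. For the difference between lines it gave −0.14 to 0.42, −0.26 to 0.17, −0.16 to 0.72 and −0.56 to −0.083, and between lines 0.076 to 0.32, −0.29 to −0.12, −1.02 to −0.59 and −0.40 to −0.19.

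The replicate number as a block called 0 genes in each of the 4 fits, and RUNX1 in Kasumi-1 was then −0.79. Deviations of same-numbered libraries from their labelled group correlated between −0.27 and −0.013. The labelled groups mix CD34 and RUNX1T1 sets, so these correlations cannot show whether same-numbered libraries share a culture or batch. Without TMM scaling the median of all genes between labels moved by 0.37 in Kasumi-1 and 0.17 in SKNO-1. Of 96 levels, 88 moved by less than the SD of their labelled group under other scalings. That SD includes the differences between the mixed sets, so this count cannot show that levels are stable to scaling. With Spearman's correlation 1 of the 3 most similar genes was shared for RUNX1, RUNX3 and CBFB, and 0 for RUNX2.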

Other observations

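Within a set of libraries sorted alike, RUNX3 and CBFB differed by line label in 2 of the 4 sets. In the CD34-silent libraries with higher RUNX1T1, RUNX3 was at 46.3 and 46.0 normalised CPM in those labelled Kasumi-1 and at 33.7 in the one labelled SKNO-1. CBFB was at 89.3 and 91.3 against 72.1 there. In the CD34-expressing libraries with lower RUNX1T1, RUNX3 was at 31.4 in the library labelled Kasumi-1 and at 20.6 and 18.6 in those labelled SKNO-1, and CBFB was at 84.2 against 65.6 and 62.4. No such gap was seen in the other 2 sets. In the CD34-silent libraries with lower RUNX1T1, RUNX3 was at 58.3 and 66.2 against 61.8 and CBFB at 113.3 and 126.7 against 116.2. In the CD34-expressing libraries with higher RUNX1T1, RUNX3 was at 13.5 against 13.5 and 12.9. RUNX1 and RUNX2 showed smaller gaps by line in these sets. With 1 or 2 libraries a line, these differences were not tested.

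The ratio of RUNX1 to RUNX1T1 per exonic length also differed between the sets. It ranged from 1.05 to 3.64 over the 12 libraries, and the reads of the fusion count towards both.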
